A study of Squalius alburnoides and Squalius pyrenaicus with 4 samples.

Results

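The epithelial miRNAs of the miR-200 family, miR-203 and miR-205 were examined in fishes of the *Squalius alburnoides* complex on a multi-species miRNA chip. A probe was taken as a member where 1 of the names it carries was exactly dre-miR-200a, dre-miR-200b, dre-miR-429, dre-miR-200c, dre-miR-141, dre-miR-203a, dre-miR-203b or dre-miR-205, the prefix standing for zebrafish. All 8 names were found, each on a probe of its own, among 218 zebrafish probes and 1154 named probes in all. A further 9 probes were named for the same miRNAs in other species, for the insect counterpart miR-8 or for a star strand, the strand of the hairpin that usually lies opposite the guide.

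The miR-200 family is transcribed from a pair of clusters, miR-200a, miR-200b and miR-429 from one and miR-200c and miR-141 from the other, and in vertebrates it holds cells in an epithelial state by repressing the transcription factors zeb1 and zeb2. In zebrafish the family is strongly expressed in epidermis, olfactory epithelium and ionocytes, and the insect counterpart is the single gene miR-8. In mammals miR-203 marks differentiating skin, where it represses p63, and miR-205 is a miRNA of stratified epithelia.

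The arrays covered 4 genomic compositions, in which P stands for a genome of *Squalius pyrenaicus* and A for the other genome of the complex. PP was the parental species *S. pyrenaicus*, AA a diploid non-hybrid form of *S. alburnoides*, PA its diploid hybrid and PAA its triploid hybrid. All fish were adult and wild-caught, PP in another river than the other forms, and were kept in captivity before sampling with no treatment. For each composition total RNA of liver, muscle and brain from about 3 individuals was pooled, labelled with Cy3 and hybridized to 1 array. The 2 hybrids shared 1 slide and AA and PP the other, so whether fish were hybrids and which slide they were on cannot be told apart, nor river and genome in any comparison with PP. The authors describe AA fish as always male and PAA fish as mainly female. The sex of the pooled fish is not stated, so sex may also differ between AA and the other forms. A single array per form allows no test of forms against each other, and every SE below is over the spots of a probe and measures the spread within an array only. In pooled tissue, fewer cells of a type and less RNA per cell cannot be told apart.

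Each probe was printed as 4 spots, and the signal of a spot is its foreground minus its local background, in arbitrary intensity units. A spot passed where the image software had kept it and its foreground reached 200% of its background, and a probe was called detected where at least 2 spots passed. By this rule PAA detected 77.1% and PA 75.2% of the zebrafish probes, while AA detected 70.6% and PP 71.6%. Of probes named only for invertebrate miRNAs, 63.9% to 73.2% were detected as well, so detection alone does not separate zebrafish probes from those of distant species. As a stricter mark the 95th percentile of the spots labelled BLANK was used, which lay at 103 on PAA and 209 on PA, and 203 on AA and 516 on PP. Of 4 liver markers, miR-192 was above the BLANK level on 4 arrays, miR-122 on 3, miR-194b on 1 and miR-194a on 0. Of 4 brain markers, miR-9 and miR-138 were above it on 4 arrays, miR-124 on 2 and miR-128 on 0. Of 4 muscle markers, miR-1 was above it on 3 arrays and miR-133a, miR-133b and miR-206 on 1 each.

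The zebrafish probes of the epithelial miRNAs gave mean signals between 105 and 487 where detected, on AA and PP mostly below the BLANK level. Probes of other species for the same families, described further below, included far brighter ones. PAA had 5 of the 8 members detected, beside 77.1% of all zebrafish probes, and PA 4, beside 75.2%. AA had 7, beside 70.6%, and PP 6, beside 71.6%. On PA, dre-miR-203b had too few kept spots to be measured. With 3 passing spots required the members detected were 5, 3, 3 and 2 on PAA, PA, AA and PP. The order of the arrays in these counts thus changed with the detection rule. The share of all zebrafish probes with 3 passing spots was not computed, so a loss of members cannot be told from a loss of probes at large. Above the BLANK level stood 5 members for PAA, beside 76.6% of all zebrafish probes, 2 for PA, beside 40.4%, 1 for AA, beside 30.3%, and 0 for PP, beside 14.2%. Within the miR-200 family 2 of 5 members were detected on each hybrid, 4 on AA and 3 on PP. The miR-203 and miR-205 probes gave 3 of 3 on PAA, AA and PP and 2 on PA. By name, dre-miR-200a, dre-miR-429, dre-miR-203a and dre-miR-205 were detected on 4 arrays, dre-miR-203b on 3, dre-miR-200b on 2, dre-miR-200c on 1 and dre-miR-141 on 0.

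**Figure D1:**
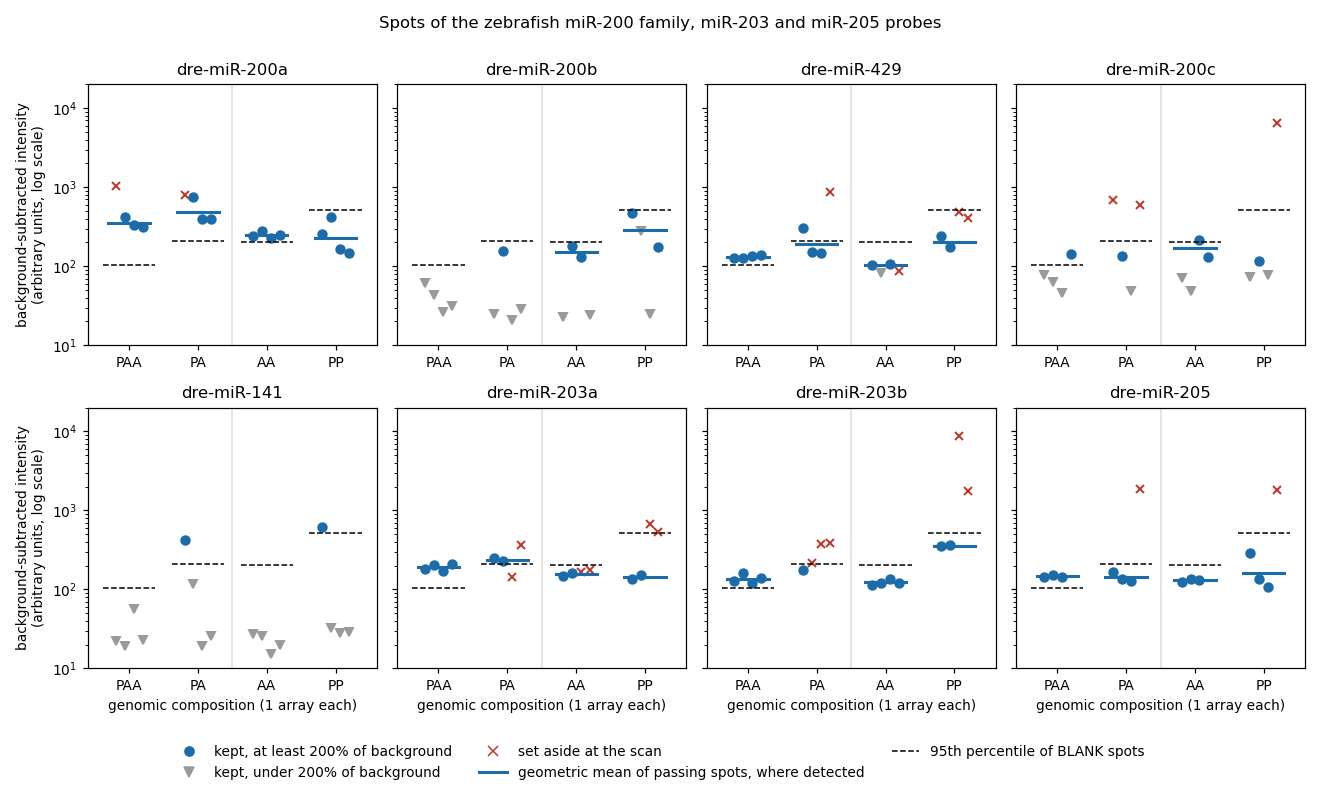
Background-subtracted intensity (log scale, arbitrary units) of each spot of the 8 zebrafish member probes on the PAA, PA, AA and PP arrays, with kept spots as circles (at least 200% of background) or triangles (below it), spots set aside at the scan as crosses, the mean of passing spots as a bar and the 95th percentile of BLANK spots as a dashed line. The circles of dre-miR-200a lie above the dashed line on PAA, PA and AA, dre-miR-141 has at most 1 circle on any array, and crosses lie far above the circles for dre-miR-200c and dre-miR-203b on PP.

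The member seen most clearly was dre-miR-200a, whose probe also carries the human, mouse, rat, chicken and pufferfish names. Its passing spots read 417, 329 and 315 on PAA, 742, 395 and 393 on PA, 238, 276, 230 and 251 on AA, and 253, 421, 163 and 147 on PP. The geometric means were thus 351 on PAA and 487 on PA, and 248 on AA and 225 on PP, above the BLANK level on every array but PP. PA was highest and PP lowest, yet the highest PP spot exceeded the lowest spots of the other 3 arrays. The high spots of PA and PP, 742 and 421, lay in the first row of subarrays on local backgrounds of 401 and 311. The 2 spots in the fourth row of subarrays, where the background was between 91 and 115 on all arrays, read 329 and 315 on PAA, 395 and 393 on PA, 230 and 251 on AA and 163 and 147 on PP. Before scaling, those spots, singled out after their values were seen, did not overlap between any of the arrays. The normalized means of PAA and AA over all passing spots, given below, were nearly equal.

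After quantile normalization over the detected zebrafish probes, dre-miR-200a differed between PA and PP by 1.14 ± 0.46 (log2 ± SE over spots), or 2.21-fold, with overlapping spots. PAA exceeded PP by 0.71 ± 0.37 and AA exceeded PP by 0.71 ± 0.35, also with overlap. Without scaling these 2 differences were 0.64 and 0.14. Scaled on the control spots labelled Homo they were 0.10 and 0.08. PAA lay below PA by 0.43 ± 0.33 on the log2 scale, with overlap. The PA spots were all above those of AA, by 0.43 ± 0.31 on the log2 scale, and this difference became 0.97 without scaling. The normalized signals of PAA and AA, 312 and 311, were the closest pair, although the signals before scaling stood at 1.41-fold.

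Its cluster partner dre-miR-429 was detected everywhere but was above the BLANK level only on PAA. The spots read 126, 127, 136 and 140 on PAA, 305, 153 and 146 on PA, 103 and 107 on AA, and 239 and 176 on PP. The 4 PAA spots agreed closely, whereas on PA the highest spot stood apart from the other 2. Normalized signals were 133 on PAA and 177 on PA, and 113 on AA and 177 on PP. AA was lower than PP by 0.65 ± 0.22 and lower than PA by 0.65 ± 0.34 (log2), without overlap of spots in either pair, while PA and PP overlapped. The order of dre-miR-429 was therefore not that of dre-miR-200a: PP was at the upper end for the former and at the lower end for the latter.

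The third member of that cluster, dre-miR-200b, was not detected on either hybrid. On PAA all 4 spots were kept and dim, at 61, 43, 26 and 31, and on PA the spots read 25, 157, 21 and 29, of which only 157 passed. On AA the spots 179 and 132 passed and 23 and 24 did not, and on PP 472 and 173 passed while 283 and 25 did not. The same probe thus gave spots several-fold apart on 1 array, and no array put its mean above the BLANK level. Over all kept spots the geometric means were 38.1 and 39.3 on PAA and PA, and 60.1 and 155 on AA and PP, and the spots of all 4 arrays overlapped. The passing spots of AA and PP differed by 0.53 ± 0.76 (log2, PP higher) with overlapping spots. Where 3 passing spots were required, dre-miR-200b was detected on no array.

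The zebrafish probes of the second cluster were near the limit of the assay. For dre-miR-200c the kept spots were 77, 64, 46 and 144 on PAA, 134 and 49 on PA, 72, 48, 216 and 131 on AA, and 73, 116 and 78 on PP. Only AA had more than 1 passing spot, which gave a mean of 168, below its BLANK level. Over all kept spots the geometric means were 99.4 on AA, 75.6 on PAA, 81.0 on PA and 87.1 on PP, and the spots of all 4 arrays overlapped. For dre-miR-141, the highest passing spot was 607 on PP and the next 426 on PA, in both cases 1 spot of 4. The remaining dre-miR-141 spots lay between 15 and 117 on all arrays, so a single bright spot was not matched by its copies, and no difference between compositions was measurable at this signal.

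The probe for dre-miR-203a, shared with pufferfish, chicken, frog and opossum names, gave passing spots that lay close together on each array. Its passing spots read 182, 201, 171 and 210 on PAA, 249 and 228 on PA, 149 and 163 on AA, and 135 and 153 on PP. Before scaling the PA spots were above those of every other array and those of PP and AA overlapped, with means of 190.4 on PAA and 238 on PA, and 156 on AA and 144 on PP. The means of AA and PP were below the BLANK level of their arrays. Normalized, PA exceeded PP by 0.72 ± 0.11, PAA exceeded PP by 0.50 ± 0.11 and AA exceeded PP by 0.47 ± 0.11 (log2), and the spots did not overlap in these 3 pairs. The difference of AA from PP fell to 0.12 without scaling. On PA, AA and PP these values rest on 2 spots, as both spots of the last subarray row had been set aside, and with those spots used the differences from PP turned to −0.26 for PA, −0.20 for PAA and −0.26 for AA, and that of PAA was also −0.14 when scaled on the control spots labelled Homo.

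The largest differences among the members were those of dre-miR-203b on PP. Its spots read 127, 160, 122 and 140 on PAA, 114, 121, 136 and 120 on AA, and 351 and 366 on PP. On PA only 1 spot, at 176, had been kept, so the probe was not measured there. PP was 2.76-fold above PAA (log2 difference 1.47 ± 0.09 with PP higher) and 2.97-fold above AA (1.57 ± 0.06), with no overlap of spots. The PP mean of 358 was nevertheless below the BLANK level of that array, and both PP spots lay on local backgrounds of 279 and 272, against 85 to 100 for the PAA and AA spots. When spots on a local background over 150 were left out, dre-miR-203b had no value on PP. The star strand probe dre-miR-203b* was detected only on PP, from 2 spots at 680 and 188 beside 2 dim spots at 42 and 33. The mean of its passing spots was also below the BLANK level of PP.

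The probe for dre-miR-205 carries 16 species names and, over its passing spots, was the least variable of the members detected on every array. Only on PAA was it above the BLANK level. Its spots read 145, 153 and 143 on PAA, 167, 135 and 126 on PA, 125, 134 and 133 on AA, and 285, 135 and 106 on PP. The means were 147, 142, 131 and 160 in that order, and after normalization the spots overlapped in every pair of arrays. Over the 4 arrays the normalized log2 values of dre-miR-205 spanned 0.20, against 0.65 for dre-miR-429, 0.72 for dre-miR-203a and 1.14 for dre-miR-200a. This leaves out spots set aside, which read 1877 on PA and 1790 on PP. With all spots, dre-miR-205 differed by −0.58 for PAA minus PA and −0.57 for PAA minus PP. It then differed by 0.68 for PA minus AA and −0.68 for AA minus PP, while PAA minus AA was 0.10 and PA minus PP 0.002.

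Across the 6 pairs of arrays 28 differences of members could be measured and 3 were beyond 2-fold. Between PAA and PA it was 0 of 4 members, with 3.4% of all zebrafish probes beyond 2-fold. Between PAA and PP it was 1 of 5 (dre-miR-203b), with a background of 30.7%, and between AA and PP 1 of 6 (dre-miR-203b again), with a background of 24.6%. Between PA and PP it was 1 of 4 (dre-miR-200a), with a background of 25.2%. Between PAA and AA it was 0 of 5 against 12.1%, and between PA and AA 0 of 4 against 9.77%. The members were thus beyond 2-fold no more often than zebrafish probes at large, and none of the 3 cases was above the BLANK level on both arrays.

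The median difference of the members was −0.31 for PAA minus PA, where 3 of 4 were lower on PAA, beside 0.02 for all zebrafish probes. It was 0.04 for PAA minus PP, beside 0.09, and 0.06 for PAA minus AA, beside 0.12. For AA minus PP the median was −0.27 beside 0.01, with 4 of 6 members lower on AA. The 2 comparisons of PA with the diploid forms gave 0.36 against PP and 0.34 against AA, beside 0.02 and 0.01 for all zebrafish probes. These comparisons share arrays, so a high PA value enters 3 of them at once, and the sign of the median for PAA against PP or AA turned with the scaling used. The median for AA minus PP turned to 0.14 when spots on a local background over 150 were left out, which left 4 of the 6 members. That for PA minus PP, over 4 members, turned to −0.13 with all spots, over 6 members. In the authors' value table it was −0.015, over 8 members. The set of members thus changed along with the processing.

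**Figure D2:**
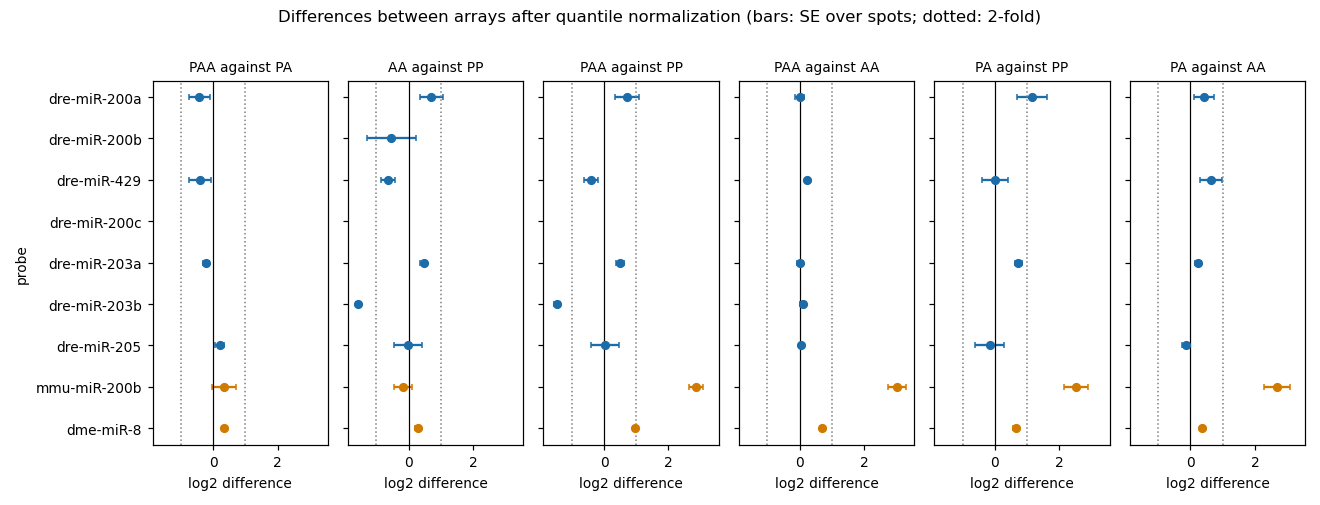
Log2 difference between arrays after quantile normalization for each member detected on both arrays (blue) and for the mmu-miR-200b and dme-miR-8 probes (orange), in 6 panels, 1 per pair, with bars of 1 SE over spots and dotted lines at 2-fold. Member points lie within 2-fold except dre-miR-203b against PP (−1.47 and −1.57) and dre-miR-200a for PA against PP (1.14), while mmu-miR-200b lies between 2.51 and 3.03 in the 4 panels that set a hybrid against AA or PP.

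The mammalian probe for miR-200b, which carries the mouse, human and rat names and is separate from the zebrafish one, showed the sharpest contrast of the family. Its 4 spots read 17193, 21230, 27026 and 26805 on PAA, 8783, 17745, 25380 and 20676 on PA, 2195, 1845, 2566 and 4013 on AA, and 3845, 3491, 2893 and 2388 on PP. No spot had been set aside, all were far above the BLANK level, and the lowest hybrid spot was above the highest spot of the other slide. Normalized, PAA exceeded PP by 2.86 ± 0.22 and AA by 3.03 ± 0.29 (log2), or 7.24- and 8.15-fold. PA exceeded PP by 2.51 ± 0.37 and AA by 2.68 ± 0.41, or 5.70- and 6.42-fold. Between the hybrids the difference was 0.34 ± 0.37, and between AA and PP it was 0.17 ± 0.28 with PP higher, in both cases with overlapping spots.

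Among the probes of other species detected on both arrays of a pair, mmu-miR-200b had the fourth highest difference of 520 for PAA against PP and the second highest of 521 for PAA against AA. For PA it was the third highest of 524 against PP and the second highest of 512 against AA. The medians of those probes were 0.28, 0.16, 0.11 and 0.06 in the same order, far below the values of mmu-miR-200b. Beyond 2-fold were 22.3%, 9.79%, 17.2% and 11.5% of the other-species probes in these 4 pairs, 8.38% between PAA and PA and 18.1% between AA and PP. The zebrafish probe dre-miR-200b, below the BLANK level on every array, showed no such contrast between the slides. Sequences of the probes were not used here, and which miRNA of these fishes either probe bound was not tested.

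The insect probe dme-miR-8 gave 17434 on PAA and 13918 on PA, and 11731 on AA and 9899.8 on PP, with an SD over the spots of an array of at most 1.09-fold. PAA exceeded PP by 0.97 ± 0.07, AA by 0.68 ± 0.05 and PA by 0.33 ± 0.03, and PA exceeded PP by 0.64 ± 0.07 and AA by 0.35 ± 0.05 (log2), all without overlap. Only AA and PP overlapped, at 0.29 ± 0.08. The order of the arrays for dme-miR-8 placed both hybrids first, as for mmu-miR-200b, but every difference was below 2-fold. Among the other-species probes, its difference ranked 78 of 520 for PAA against PP and 92 of 521 for PAA against AA. For PA it ranked 111 of 524 against PP and 155 of 512 against AA. Scaled to the median, PAA minus AA became −0.07 and PA minus AA −0.25, and PAA minus PA became −0.06 on the Homo spots and −0.09 with all spots.

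The mouse probe mmu-miR-203 read 984 on PAA and 1133 on PA, and 888 on AA and 736 on PP, above the BLANK level throughout, and its normalized differences were no larger than 0.12 in any pair. The mammalian probe mmu-miR-141 read 350.2, 277, 304 and 242 in the same order, with an SD over kept spots of 3.31-fold on PAA. Its PP mean was below the BLANK level of that array. The human probe hsa-miR-200c was detected on PAA at 264, on PA at 138 and on PP at 149.9, and not on AA. PAA exceeded PA by 0.99 ± 0.35 and PP by 0.84 ± 0.36 (log2) for hsa-miR-200c, from 2 passing spots per array that did not overlap. The PA and PP means of hsa-miR-200c were below the BLANK level of their arrays. Over all kept spots its geometric means were 134 on PAA, 109 on PA and 89.0 on PP, with overlapping spots. For hsa-miR-203 the means were 125, 168, 119 and 236, with overlapping spots in every pair, and only that of PAA was above the BLANK level. Its brightest PP spots, 436 and 371, lay on local backgrounds of 375 and 287. The probe hsa-miR-429 gave 129, 142 and 124 on the first 3 arrays and had too few kept spots on PP. Its PA and AA means were below the BLANK level of their arrays. The star strand probe hsa-miR-200a* read highest on PP (379), followed by PAA (207) and AA (175), and too few spots were kept on PA. Its PP value was 2.01-fold that of PAA after normalization, with overlapping spots and an SE of 0.55 (log2). The PP and AA means of hsa-miR-200a* were below the BLANK level of their arrays. Its brightest PP spots, 686 and 380, lay on local backgrounds of 429 and 303.

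**Figure D3:**
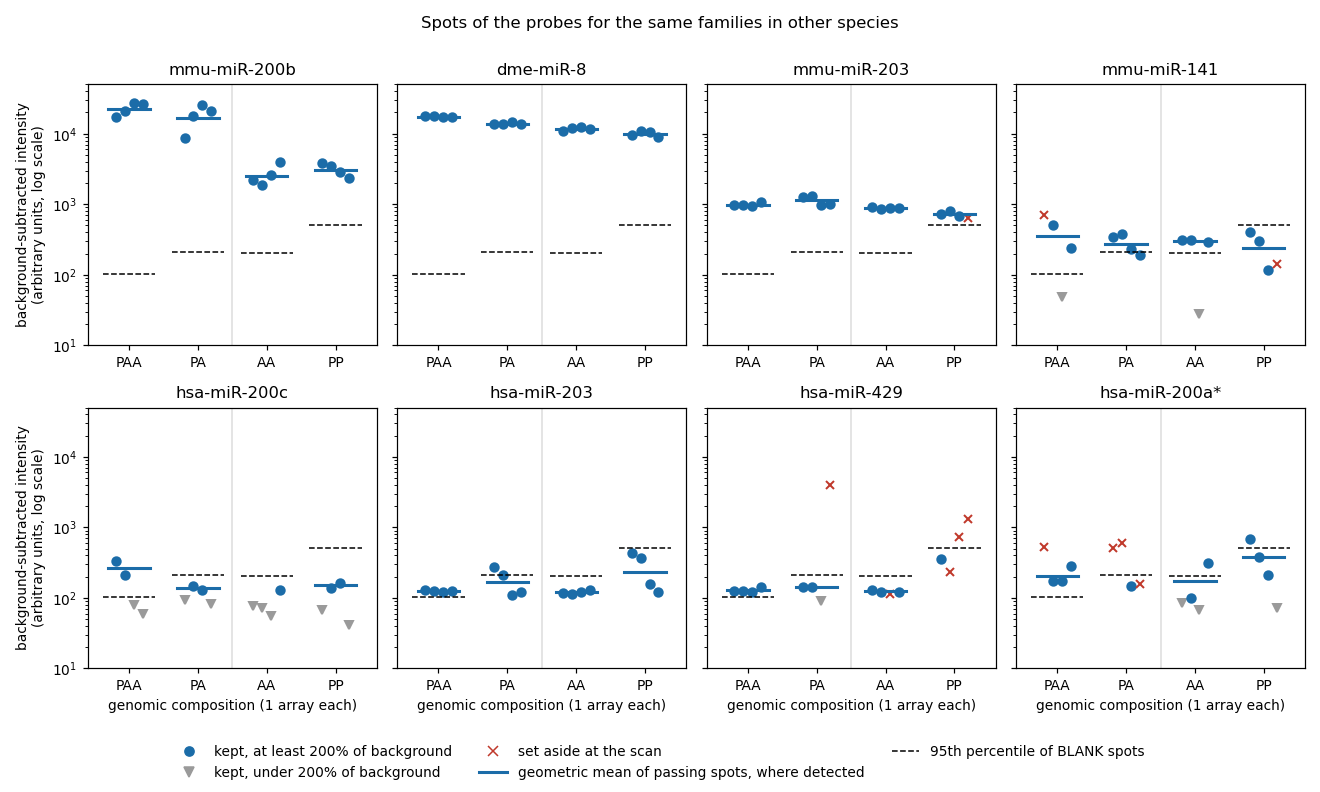
Background-subtracted intensity (log scale, arbitrary units) of each spot of 8 probes named for the same miRNA numbers in other species, on the PAA, PA, AA and PP arrays, with the symbols, bars and dashed BLANK lines used for the zebrafish members. The mmu-miR-200b spots of PAA and PA (8783 to 27026) are all above those of AA and PP (1845 to 4013), whereas dme-miR-8 stays between 8890 and 17784 on all arrays. The passing spots of mmu-miR-203 lie between 692 (PP) and 1316 (PA) before scaling.

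Some markers of several cell types were higher on both hybrids than on AA and PP, and others were not. The sensory epithelium markers miR-96, miR-182 and miR-183, of which 3 of 3 were detected on both hybrids and 2 of 3 on AA and PP, summed to 1644 on PAA and 1555 on PA against 230 on AA and 257 on PP, with miR-182 detected on the hybrids only. Sums here hold detected markers only, and most of the hybrid sums was miR-182, at 1183 and 1090. For miR-96 the values were 278 and 295 on the hybrids against 121 on AA and 131 on PP. For miR-183 they were 183 and 170 against 108 and 125. None of these markers was above the BLANK level on AA or PP. Of the red blood cell markers, miR-451 was 366 and 409.8 on the hybrids against 164 on AA and 118 on PP, both below the BLANK level. The other, miR-144, was detected on no array. The 4 skeletal muscle markers, all detected on every array, summed to 1703 and 1338 on the hybrids against 907 and 765 on AA and PP. Most of that difference was miR-1, at 1262 and 782 against 479 and 276, while miR-206 ran the other way, at 152 and 175 against 187 and 208. The liver markers summed to 27529 and 25407 on the hybrids against 21708 on AA and 22744 on PP. Nearly all of this was miR-192, at 27142 and 24909 against 21327 and 21854. The other liver markers did not split this way: miR-122 read 259 and 217 against 226 and 164. For miR-194b the values were 128 and 154 against 155 and 230. The probe for miR-194a was detected only on PA (126) and PP (496). The brain markers summed to 7769 and 5599 against 4138 and 5342. Of these, miR-9 was higher on both hybrids, at 4010 on PAA and 4026 on PA against 2089 on AA and 3375 on PP. The brain marker miR-138 was highest on PAA (3569) but lower on PA (1329) than on AA (1911) and PP (1564). Also among the brain markers, miR-124 read 190 on PAA and 244 on PA, was not detected on AA and was highest on PP (278). The marker miR-128 was detected only on AA (137) and PP (126). The gonad marker miR-202 was seen at 296 on AA and, below the BLANK level, at 206 on PP, but not on the hybrids. Of the 4 pancreas markers 1 to 3 were detected per array, with sums between 171 and 504 in no such order. The part of these cell types in the values of mmu-miR-200b and dme-miR-8 was not tested.

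The hybrids were also set against an additive expectation, with each array scaled to its total signal. For PA this was the average of the AA and PP signals, and for PAA the average in which AA enters 2 times. The PP signal of every member was below the BLANK level, as was the AA signal of every member but dre-miR-200a. Each expectation therefore rests on at least 1 such value, and the SE over spots does not cover this. On PA, dre-miR-200a measured 488 against 243 expected, a log2 ratio of 1.01 ± 0.35, and dre-miR-203a 239 against 154, a ratio of 0.64 ± 0.08. The dre-miR-203a values of PA, AA and PP rest on 2 spots each. Left out were the spots set aside, which read 677 and 526 on PP. With all spots, PA minus PP turned to −0.26 for this probe, and the additive ratio was not computed with them. The ratios of dre-miR-429 (0.25 ± 0.37) and dre-miR-205 (−0.07 ± 0.27) were within their SE of 0. The median of all 116 zebrafish probes measured on the 3 arrays was 0.14. On PAA, dre-miR-200a stood at 0.44 ± 0.17, dre-miR-203a at 0.22 ± 0.09, dre-miR-429 at −0.18 ± 0.12 and dre-miR-205 at −0.05 ± 0.17, beside a median of 0.19 over 124 zebrafish probes. The lowest PAA ratio, −0.68 ± 0.09 for dre-miR-203b, rests on the PP spots with a high local background. With scaling to the median, dre-miR-200a was at 0.74 on PA and 0.027 on PAA, and dre-miR-203a was at 0.37 on PA and turned to −0.19 on PAA.

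**Figure D4:**
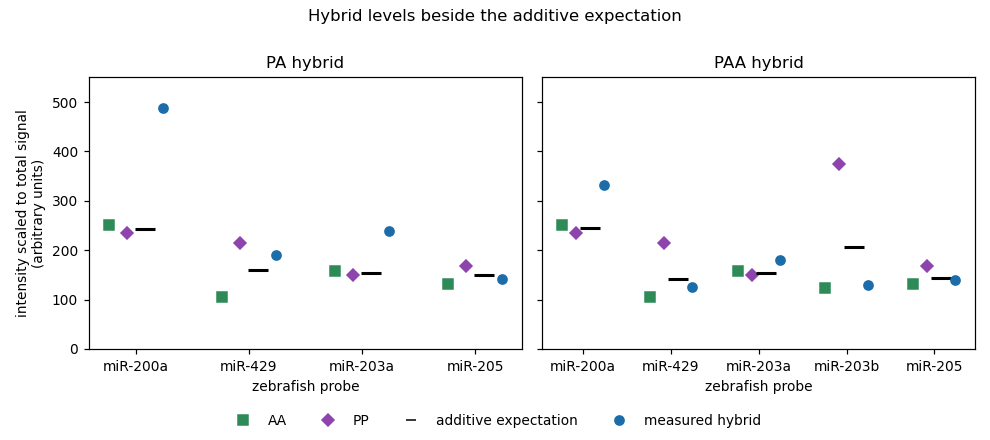
Intensity scaled to total signal (arbitrary units, linear axis from 0) of the zebrafish member probes on AA (squares), PP (diamonds) and the hybrid (circles), with the additive expectation as a horizontal bar, for PA on the left and PAA on the right. The dre-miR-200a circle lies at 488 against an expectation of 243 on PA and at 332 against 245 on PAA, while the dre-miR-205 circles lie next to their bars.

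For the 4 members detected everywhere, the zebrafish probes with the most similar profile were sought among the 114 probes detected on all arrays, by the root mean square difference of centred log2 values over 4 arrays. Those nearest to dre-miR-200a were dre-miR-203a (0.15), dre-miR-454a (0.16) and dre-miR-155 (0.16). The profile of dre-miR-203a was in turn most like those of dre-miR-155 (0.044), dre-miR-454a (0.078) and dre-miR-15a* (0.095), all with PA at the top and PP at the bottom. Nearest to dre-miR-429 were dre-miR-30e (0.14), dre-miR-107 (0.14) and dre-miR-16c (0.16), which were highest on PA and lowest on AA or PAA. The profile of dre-miR-205, flat over its passing spots and above the BLANK level only on PAA, was closest to dre-miR-153b (0.015), dre-miR-137 (0.049) and dre-miR-30a (0.053). With only 4 arrays and dim probes that share each array's normalization, these likenesses are descriptions.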

How the data were processed

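Scanner files deposited by the authors give a foreground and a local background intensity for each of 5040 spots in 24 subarrays. The image software also wrote other values into the deposited files, 1 or 0 per spot, and no source used here explains them. They were read as 1 for kept and 0 for set aside, since the authors' value table, also a linear intensity, equalled the mean foreground of spots with 1 times a factor per array. That table served as an alternative. The slide was read from image names in the headers.

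Background-subtracted signals of passing spots were averaged as log2 and quantile normalized over the detected zebrafish probes in Python 3.11.15 with numpy 2.4.6 and pandas 2.3.3. The procedure was tested on simulated data against limma 3.58.1 (R 4.3.3). Because quantile normalization shifts values where arrays differ in the number of detected probes, unscaled signals are given first. The number of arrays limits the precision. Every member was named by rule, with the probes of the same numbers, the extremes among them, and the 3 most alike zebrafish probes of each member detected everywhere. The members and lists were chosen with earlier results of these data known. Alternatives were other scalings (none, median, total signal, the control spots labelled Homo), normexp with an offset of 50, no background subtraction, no filter on dim spots, all spots, medians over spots, other detection rules and, chosen after seeing the data, a local background of at most 150 and the other scalings of the other-species probes and of the additive ratios. Sequences of miRNAs and probes were not used here.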

Additional observations from a re-analysis of the deposited data

Results flagged for a closer look

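Of the 22 member spots set aside at the scan, 16 exceeded both the BLANK level of their array and every kept spot of the same probe, and none of them enters the levels above, only the values given with all spots or with those spots used. Of the 22, 18 lay in the last of the 6 subarray rows. For dre-miR-200a the spots set aside read 1035 on PAA and 802 on PA, both in the first subarray row. For dre-miR-429 the spot read 864 on PA. For dre-miR-200c the spots read 688 and 593 on PA and 6591 on PP, although the kept spots there did not exceed 134 and 116. For dre-miR-203a they read 360 on PA and 677 and 526 on PP. For dre-miR-203b they read 217, 377 and 387 on PA and 8652 and 1734 on PP. For dre-miR-205 they read 1877 on PA and 1790 on PP. No such spot of a member was found on AA and only 1 on PAA. Why they were set aside was not tested.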

How the results depend on the processing

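Of 28 member differences 13 kept their sign under every alternative that could be run, among them 5 of the 6 of dre-miR-200a, PAA against AA being the exception. Of those 5, PAA against PP fell as low as 0.10 and AA against PP as low as 0.08 (log2). No difference beyond 2-fold turned its sign. That of dre-miR-203b lay between −3.10 and −0.96 (log2) for PAA against PP and between −3.23 and −1.03 for AA against PP, and that of dre-miR-200a for PA against PP between 0.82 and 1.58. The mmu-miR-200b contrast of hybrids with AA and PP stayed beyond 2-fold under the 6 alternatives run for it, with its lowest value, 2.24, for PA against AA with scaling to the median, and became 2.32 for PAA against PP on the Homo spots. The cause of the changes below was not tested.

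The median of the members for PAA against PA became −0.78 on the Homo spots. For PAA against PP, over 5 members, it became −0.33 with scaling to the median, −0.67 on the Homo spots and −0.57 with all spots. In the authors' table it was −0.28, over 8 members. For PAA against AA it became 0.29 without scaling, −0.35 with scaling to the median and −0.19 on the Homo spots. For PA against AA, over 4 members, it became 0.73 without scaling and with the total signal. With all spots it was 0.84, over 6 members. Against the additive expectation the PAA median became −0.43 with scaling to the median. Scaling to the median moved the median of all zebrafish probes to −0.19 for PAA against PA, −0.35 for PAA against AA, 0.30 for AA against PP and −0.16 for PA against AA. Scaling on the Homo spots moved it to −0.43, −0.19, −0.19 and 0.23 in these pairs, −0.39 for PAA against PP and −0.11 for PA against PP, and no scaling to 0.29 for PAA against AA and 0.33 for PA against AA.

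Zebrafish probes beyond 2-fold numbered 5 of 147 for PAA against PA. Over the same 147 they became 13 on the Homo spots, 2 with normexp and 3 without background subtraction. They were 13 of 210 without the filter and 17 of 166 with all spots. For PAA against PP, 42 of 137 became 26 of 137 with normexp and 25 of 107 with a local background of at most 150. For PAA against AA, 17 of 140 became 10 of 140 with normexp and also without background subtraction. They were 33 of 215 without the filter and 29 of 155 with all spots. For AA against PP, 32 of 130 became 69 of 204 without the filter and 51 of 156 with all spots. For PA against PP, 33 of 131 became 61 of 200 without the filter. For PA against AA, 13 of 133 became 36 of 207 without it and 29 of 156 with all spots. The number of probes compared thus changed as well. Members detected on PA were 8 with 1 passing spot required and 2 above the BLANK level. On AA they were 3 with 3 passing spots and 1 above the BLANK level, and on PP 2 and 0. The shares of all zebrafish probes with 1 or with 3 passing spots required were not computed. No paired analysis was possible because each composition has 1 array and no replicate.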
